A study of Mus with 16 samples.

Results

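The genes of the fetal let-7 axis, *Trim71*, *Lin28a*, *Lin28b*, *Hmga2*, and *Igf2bp1*, together with *Dppa5a*, were followed in the forebrain of 16 mice at postnatal day 6. These 6 genes are members of a count table of 54219 genes and were taken by their identifiers. *Trim71* and *Dppa5a* were chosen from earlier results on these animals, in which their response to *Kdm5c* loss was known, and the other 4 genes were chosen as their relatives in the pathway. For *Trim71* and *Dppa5a*, the comparisons of mutant with wild-type (WT) animals are therefore descriptions without a test.

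Polyadenylated RNA was sequenced from 4 groups of 4 animals, namely WT and *Kdm5c*-KO males and WT and *Kdm5c*-HET females. *Kdm5c* lies on the X chromosome and encodes a demethylase of histone H3 lysine 4. *Kdm5c*-KO males carry, as their only copy, an allele from which exons had been removed with Cre, and *Kdm5c*-HET females carry that allele beside a WT copy. WT animals are males and females with intact *Kdm5c*. All animals were on a mixed C57BL/6J and 129S1/SvImJ background and came from a few litters, and the litter of each animal is not given in the sources used here. Forebrain here means cortex and hippocampus, and the neuronal marker *Rbfox3* ran from 216 to 275.0 CPM in all of them. The label of each animal also ends in the letter D or E, whose meaning is not given in the sources used here. In males, E was carried by 1 of the WT and 2 of the mutant animals, and in females by 2 of the WT and 3 of the mutant animals, so that letter and genotype were unevenly mixed. Fewer cells that express a gene and less RNA per cell cannot be told apart in such tissue libraries.

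The let-7 microRNAs are scarce in embryonic tissue and accumulate as it matures. LIN28A and LIN28B are RNA-binding proteins that hold let-7 back by binding its precursors, and let-7 in turn represses their mRNAs, which makes the axis a switch between a fetal and a mature state. HMGA2, a chromatin protein that keeps fetal neural stem cells dividing, and IGF2BP1, an mRNA-binding protein of the embryonic brain, are classical let-7 targets. TRIM71, the mouse counterpart of worm LIN-41, is a further let-7 target that represses mRNAs and supports the early neural tube. DPPA5A is an RNA-binding protein of pluripotent cells and early germ cells, listed here beside the axis. Mature let-7 was not measured by these libraries.

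The 16 libraries held between 21513783 and 30063352 counts each. The members were scarce in all of them. Over the 16 animals, *Lin28b* had 1917 counts in sum, *Igf2bp1* had 533, *Dppa5a* had 294, *Trim71* had 292, *Hmga2* had 51, and *Lin28a* had 8. *Trim71* thus had between 2 and 33 counts per animal. The variance of its counts within a group was 1.56 to 4.59 times their mean and that of *Dppa5a* was 0.431 to 3.21 times, where counting error alone gives about 1. *Trim71*, *Dppa5a*, *Lin28b*, and *Igf2bp1* passed the filter on low counts with 17866 genes in all, while *Lin28a* and *Hmga2* did not pass. Levels are given as CPM, a count relative to the TMM-adjusted size of its library. They are not compared between genes, because transcript length was not taken into account.

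**Figure D1:**
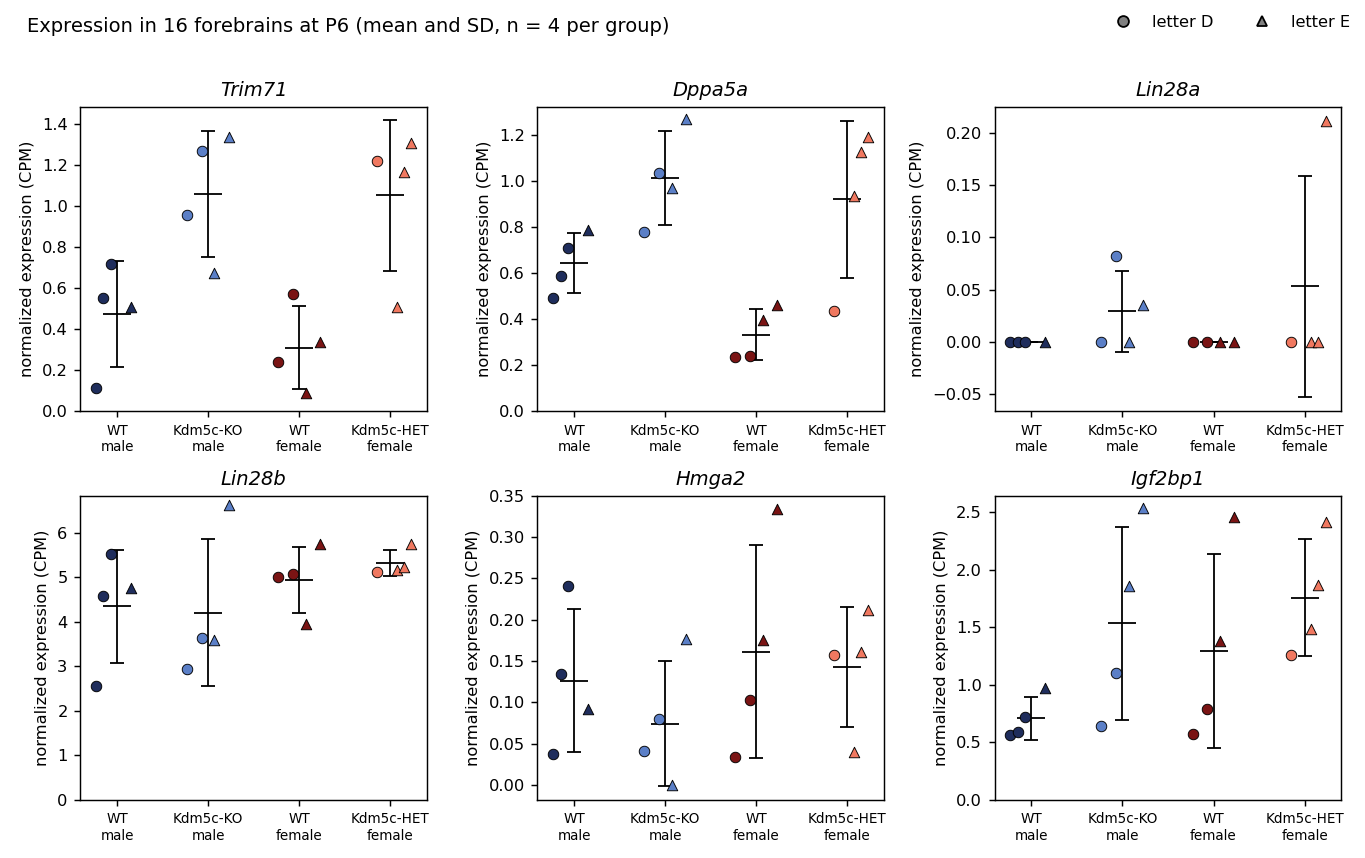
Normalized expression (CPM, linear axis) of the 6 genes in each animal, by group, with circles for letter D and triangles for letter E, and bars for the mean ± SD of 4 animals. *Trim71* and *Dppa5a* were higher in 15 of 16 mutant and WT pairs in either sex, *Lin28a* was at 0 in all 8 WT animals, and *Igf2bp1* split by letter within every group.

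*Trim71* (ENSMUSG00000079259; mm10, chromosome 9, 114511268 to 114564369) overlaps no other annotated gene. WT males had 11, 3, 16, and 16 counts (animals 1E, 2D, 5D, and 7D), and *Kdm5c*-KO males had 33, 19, 31, and 24 (2E, 3E, 4D, and 6D). WT females had 17, 7, 8, and 2 counts (1D, 3D, 4E, and 5E), and *Kdm5c*-HET females had 29, 33, 31, and 12 (6E, 8E, 9D, and 9E). In either sex the mutants were the higher group, with 1 mutant per sex within the WT range in CPM, male 3E at 0.670 CPM against a WT maximum of 0.717 CPM and female 9E at 0.509 CPM against 0.570 CPM.

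In males the mean level was 0.472 ± 0.256 CPM without the mutation and 1.06 ± 0.306 CPM with it, a ratio of 2.24 (SD, n = 4 per group). In females the means were 0.308 ± 0.202 CPM and 1.05 ± 0.366 CPM, a ratio of 3.41. The mutant means of the sexes were close, and the WT mean was lower in females. The fitted log2 fold change (Log2FC) was 1.17 (standard error, SE, 0.450) in males and 1.72 (SE 0.469) in females, and the male response minus the female response was -0.55 (SE 0.656). By edgeR's quasi-likelihood test at q under 0.1, 3.55% of all genes tested were called higher in the male mutants, 0.481% were called higher in the female mutants, and 0.0392% differed in response between the sexes. As *Trim71* was chosen on these contrasts, nothing is read from its place among them.

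The contrast of the WT sexes was not used to choose the genes, but it is not independent of the choice, since a low level in WT females also raises the female response. *Trim71* in WT females and WT males overlapped widely, with a Log2FC of -0.55 (SE 0.513, 95% interval -1.56 to 0.45, edgeR q = 0.609). It ran from -1.05 (WT female 1D left out) to -0.28 (WT female 5E left out), with q of 0.330 or more in all 16 such fits, and the same females moved the difference in response between the sexes from -1.05 to -0.27. A difference of more than 2-fold in favour of males lies within this interval. The letter gave no call either, with a Log2FC of -0.28 (SE 0.335, 95% interval -0.94 to 0.38, edgeR q = 0.627) for E against D. Within letter D, the *Kdm5c*-KO males had 2.42 times the level of the WT males and the *Kdm5c*-HET female had 3.01 times that of the WT females. Within letter E the ratios were 1.97 and 4.72. Each of these rests on between 1 and 3 animals per side.

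*Dppa5a* (ENSMUSG00000060461; chromosome 9, 78367052 to 78368199) is a short gene with 2 annotated relatives nearby, *Dppa5b* (78245487 to 78246600) and *Dppa5c* (78271935 to 78273046), both pseudogenes. Only uniquely mapped reads were kept by the authors, so reads shared with these copies could have been lost and its counts are uncertain to that extent. WT males had 17, 19, 17, and 11 counts and *Kdm5c*-KO males had 24, 36, 19, and 26, in the order of animals given for *Trim71*. WT females had 7, 7, 11, and 9 counts, and *Kdm5c*-HET females had 28, 30, 11, and 22. The lowest mutant of each sex, male 4D at 0.778 CPM and female 9D at 0.433 CPM, lay just below the highest WT animal, male 1E at 0.785 CPM and female 4E at 0.459 CPM.

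Mean *Dppa5a* in males was 0.643 ± 0.129 CPM for WT and 1.01 ± 0.203 CPM for mutant animals, a ratio of 1.57 (SD, n = 4 per group). In females the means were 0.332 ± 0.112 CPM and 0.920 ± 0.343 CPM, a ratio of 2.77. The fitted Log2FC was 0.66 (SE 0.317) in males and 1.49 (SE 0.349) in females, with a difference of -0.83 (SE 0.473). Within letter D the ratios were 1.52 in males and 1.82 in females, and within letter E they were 1.43 and 2.54. When animals of the same letter were set side by side, every mutant exceeded every WT animal of its sex for both *Trim71* and *Dppa5a*, a pattern that 1.99% of the genes tested had. The choice of these genes used the same animals, so this is a description.

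All 4 WT females had less *Dppa5a* than all 4 WT males, with a ratio of the means of 0.516. Of the genes tested, 5.32% were lower in every WT female than in every WT male, and 5.0% were called different between the WT sexes in either direction. The Log2FC was -0.97 (SE 0.362, 95% interval -1.68 to -0.26) and did not pass the threshold after adjustment (edgeR q = 0.157). With the letter as a covariate the Log2FC was -1.15 and passed (edgeR q = 0.0450). That fit called more genes between the WT sexes, 1679 of 17866 against 894 without the covariate. The WT females are also the controls of the contrast on which *Dppa5a* was chosen.

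*Dppa5a* was also higher in animals of letter E, with a Log2FC of 0.64 (SE 0.230, edgeR q = 0.0587), against 11.6% of the genes tested that were called higher in E and 12% called lower. The E animals exceeded the D animals in 3 of the 4 groups, the *Kdm5c*-KO males being the exception. WT males had only 1 animal of letter E and *Kdm5c*-HET females only 1 of letter D, so the separation there rests on that animal. The share of all genes with such a pattern was not counted. This call was lost without the filter on low counts (q = 0.165), and without *Kdm5c*-KO male 3E (q = 0.109), *Kdm5c*-KO male 4D (q = 0.103), or *Kdm5c*-HET female 9D (q = 0.234).

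**Figure D2:**
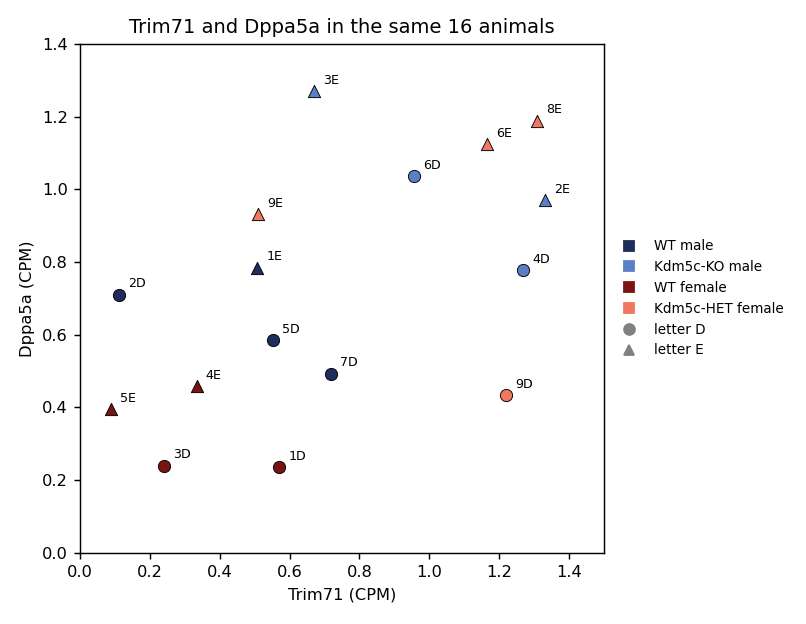
*Trim71* against *Dppa5a* (CPM, linear axes) in the 16 animals, coloured by group, with circles for letter D and triangles for letter E. The highest *Dppa5a*, 1.27 CPM in *Kdm5c*-KO male 3E, accompanied the lowest *Trim71* of that group, 0.670 CPM.

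The mutants highest for one of these genes were not always those highest for the other. *Kdm5c*-HET female 9D had 1.22 CPM of *Trim71* and the lowest *Dppa5a* of its group, 0.433 CPM. *Kdm5c*-HET female 9E had the lowest *Trim71* of its group, 0.509 CPM, and 0.932 CPM of *Dppa5a*. The females 6E and 8E were high for both, with at least 1.16 CPM of *Trim71* and at least 1.12 CPM of *Dppa5a*.

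The genes most like each of them over the 16 animals were sought by Pearson's r of log2 CPM among 1007 genes that the tables used here pair with a symbol. Those names come from lists that the study drew up on these animals, so they are weighted towards genes that respond to *Kdm5c*, and the animals share their groups. The 5 highest values for *Trim71* were *Tcf24* (r = 0.831), *Smpdl3a* (0.795), *Samd11* (0.794), *Nbl1* (0.794), and *Cpxm1* (0.790). For *Dppa5a* they were *Tdrd1* (r = 0.874), a tudor-domain gene of the germline piRNA pathway, *Nfatc4* (0.874), a calcium-regulated transcription factor, *Hes6* (0.855), a transcription factor of neuronal differentiation, *Slc27a3* (0.852), and *Bex1* (0.845). The lists of the 2 genes had no name in common.

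*Lin28a* (ENSMUSG00000050966; chromosome 4, 134003330 to 134019196), the blocker of let-7 maturation best known from embryonic stem cells, was at the edge of detection. It had 0 counts in all 8 WT animals. Among the *Kdm5c*-KO males, 3E had 1 count and 4D had 2, and among the *Kdm5c*-HET females, 9E had 5. The other 5 mutants had 0. A count of 0 in all 4 libraries of a group allows up to 0.0299 CPM in WT males and 0.0283 CPM in WT females (3 counts of the group's total, counting error only). The sum of 8 counts in the mutants has a 95% Poisson interval from 3.45 to 15.8, for counting error only, and 5 of the 8 counts came from a single animal. The means of mutants and WT animals did not differ beyond the spread of the animals (exact permutation test, two-sided, p = 0.429 in males and p = 1 in females, where 4 against 4 can give no less than 0.0286). A difference was not detectable at this depth.

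*Lin28b* (ENSMUSG00000063804; chromosome 10, 45376617 to 45486314), the LIN28 paralog, had the most counts of the 6 genes, and its locus overlaps the pseudogene *Gm51827*. WT males had 103, 148, 74, and 102 counts and *Kdm5c*-KO males had 89, 188, 89, and 74. WT females had 149, 148, 95, and 131 counts and *Kdm5c*-HET females had 130, 145, 130, and 122. The groups overlapped in both sexes, and the male groups were the more variable. In males the means were 4.35 ± 1.27 CPM for WT and 4.21 ± 1.65 CPM for mutant animals, and in females 4.94 ± 0.735 CPM and 5.32 ± 0.293 CPM (SD, n = 4 per group).

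No contrast of *Lin28b* passed the threshold. The Log2FC was -0.03 (SE 0.228, 95% interval -0.48 to 0.41, edgeR q = 0.962) in males and 0.11 (SE 0.221, 95% interval -0.33 to 0.54, edgeR q = 0.993) in females. Both intervals lie within a change of 2-fold in either direction. When single animals were left out, the sign in males turned in 5 of 16 fits. WT females against WT males gave 0.19 (SE 0.225, edgeR q = 0.705), and letter E against D gave 0.21 (SE 0.158, edgeR q = 0.399).

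*Hmga2* (ENSMUSG00000056758; chromosome 10, 120361268 to 120476469), which overlaps several annotated non-coding RNAs and has a pseudogene, *Hmga2-ps1*, on chromosome 1, had between 0 and 8 counts per animal. WT males had 2, 1, 7, and 3 counts and *Kdm5c*-KO males had 0, 5, 1, and 2. WT females had 1, 3, 8, and 4 counts and *Kdm5c*-HET females had 4, 1, 4, and 5. Reads were thus found in 15 of the 16 animals and no group stood apart. The means were 0.126 ± 0.0863 CPM and 0.0742 ± 0.0755 CPM in WT and *Kdm5c*-KO males, and 0.161 ± 0.129 CPM and 0.142 ± 0.0729 CPM in WT and *Kdm5c*-HET females (SD, n = 4 each). By the exact permutation test, two-sided, p was 0.4 in males, 0.8286 in females, and 0.686 between the WT sexes. At so few counts only large differences could have been seen.

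*Igf2bp1* (ENSMUSG00000013415; chromosome 11, 95957163 to 96005944), whose locus contains the microRNA *Mir3063*, had the largest difference between the letters of the 4 genes fitted. WT males had 21, 15, 17, and 16 counts and *Kdm5c*-KO males had 46, 72, 27, and 16. WT females had 17, 23, 33, and 56 counts and *Kdm5c*-HET females had 37, 61, 32, and 44. The highest animals were those of letter E in every group.

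The mean of *Igf2bp1* in males was 0.708 ± 0.187 CPM for WT and 1.53 ± 0.838 CPM for mutant animals, and in females 1.30 ± 0.843 CPM and 1.76 ± 0.507 CPM (SD, n = 4 per group). The Log2FC in males was 1.14 (SE 0.437, 95% interval 0.28 to 1.996) and did not pass the threshold (edgeR q = 0.188). It passed without the filter on low counts (1.15, q = 0.0198) and without *Kdm5c*-KO male 6D (1.39, q = 0.0737). With the letter as a covariate it was 0.77 (q = 0.160). In females the Log2FC was 0.47 (SE 0.405, 95% interval -0.32 to 1.26, edgeR q = 0.968). It was 0.28 with the letter as a covariate and ran from 0.21 (WT female 1D left out) to 0.96 (WT female 5E left out), and passed in none of these fits (edgeR q = 0.645 or more). The difference between the sexes was 0.67 (SE 0.597, edgeR q = 0.884), and the WT females exceeded the WT males by 0.85 (SE 0.446, edgeR q = 0.324). Neither passed, and leaving out single animals moved the former from 0.18 (without WT female 5E) to 0.93 (without WT female 1D) and the latter from 0.36 to 1.11 (without the same females), again with no call. Within letter D the mutants had 1.403 times the WT level in males and 1.85 times in females, and within letter E the ratios were 2.27 and 1.005.

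**Figure D3:**
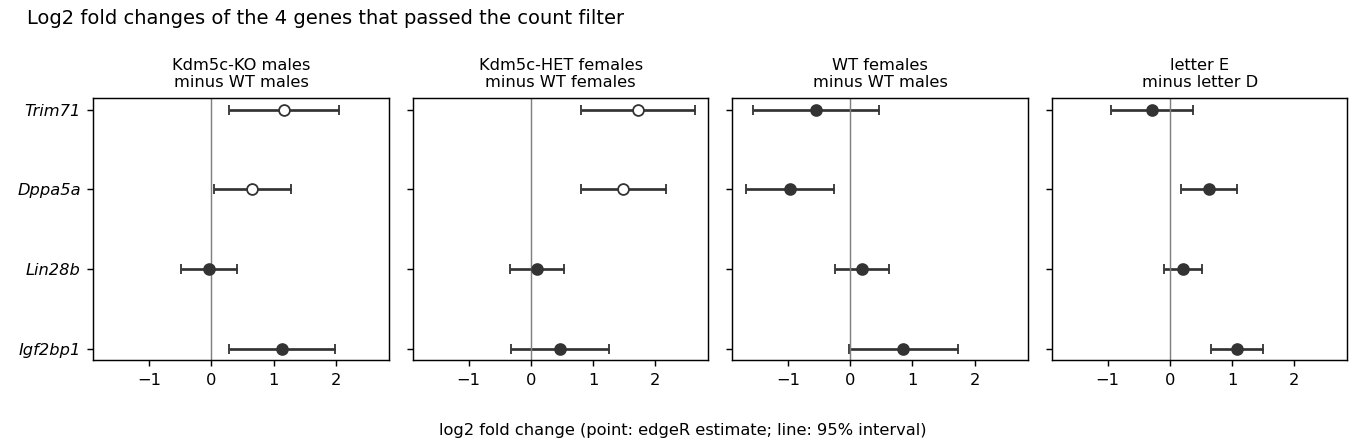
Log2FC of the 4 genes that passed the count filter, as the edgeR estimate with a line for its 95% interval, in 4 contrasts. Open points mark the contrasts on which *Trim71* and *Dppa5a* were chosen. The line of *Igf2bp1* lies above 0 for letter E minus D (1.09), and all lines of *Lin28b* cross 0.

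*Igf2bp1* rose with letter E. In each of the 4 groups every E animal exceeded every D animal, which was true of 3.22% of the genes tested. The 8 D animals ranged from 0.561 to 1.26 CPM, with a mean of 0.778 CPM, and the 8 E animals ranged from 0.969 to 2.54 CPM, with a mean of 1.87 CPM. The Log2FC for E against D, with the 4 groups in the fit, was 1.09 (SE 0.212, 95% interval 0.67 to 1.501, edgeR q = 0.000935), a 2.12-fold difference. Only 25 of the 2073 genes called higher in E had a larger Log2FC, and the median over these 2073 genes was 0.17. Leaving out single animals gave a Log2FC from 0.94 to 1.23, with q from 0.000738 to 0.00397.

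**Figure D4:**
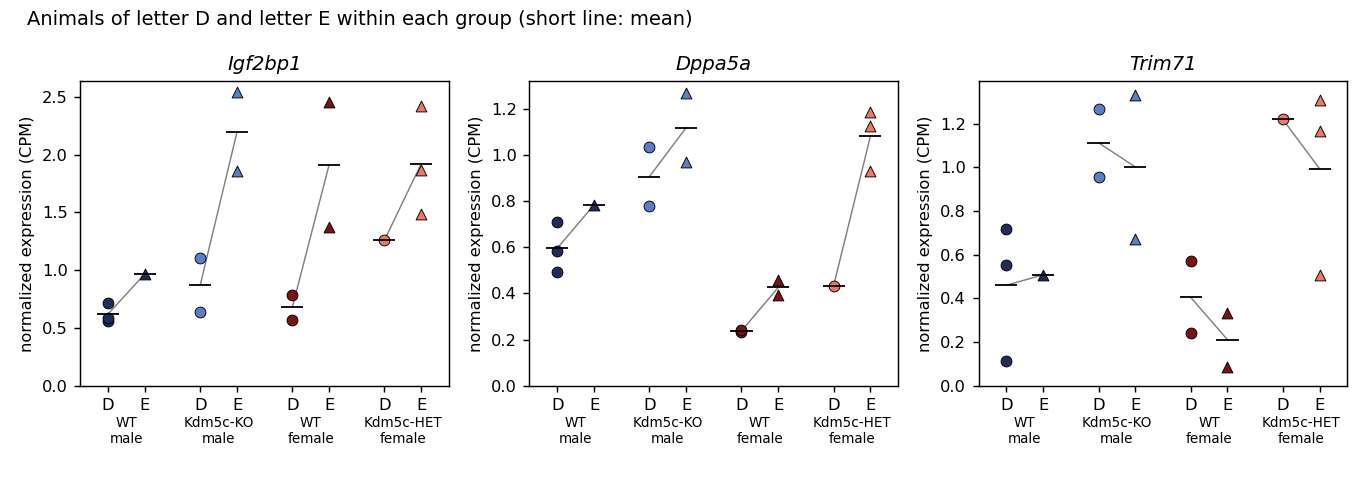
Expression (CPM, linear axis) of *Igf2bp1*, *Dppa5a*, and *Trim71* in animals of letter D and E within each group, with a short line for the mean of each set. *Igf2bp1* was higher in E in 4 of 4 groups, and *Dppa5a* did not overlap in 3 of 4. WT males had only 1 animal of letter E and *Kdm5c*-HET females only 1 of letter D, so the separation there rests on that animal. *Trim71* overlapped in the groups with more than 1 animal per letter and had no call.

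Other let-7 targets, let-7 processing factors, mRNAs repressed by TRIM71, transcripts bound by IGF2BP1, pluripotency genes, and markers of brain cell types were listed as a setting for these genes. The tables used here pair only 12 of the 129 listed genes with an identifier, all of them through lists that the study chose on these animals, so no list can be described as a group. Of 23 other let-7 targets, 2 could be read. *Igf1r*, the receptor of insulin-like growth factors, rose with letter E by 0.24 (SE 0.0371, edgeR q = 8.78e-05), from 84.4 ± 6.22 CPM in D to 102 ± 7.32 CPM in E (SD, n = 8 each). All E animals, at 92.0 CPM or more, lay above all D animals, at 90.8 CPM or less. Of all genes tested, 11.6% were called higher in E, and the share with such a full separation was not counted. *Ccnd2*, the cyclin D2 gene, differed by 0.04 between the letters (SE 0.0344, edgeR q = 0.467). In *Kdm5c*-KO males *Igf1r* gave 0.27 (edgeR q = 0.114) and *Ccnd2* gave 0.15 (edgeR q = 0.131), and in *Kdm5c*-HET females both gave 0.01 (edgeR q = 0.999).

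*Cdkn1a*, the cell cycle inhibitor p21, is an mRNA that TRIM71 is known to repress, and was the 1 of 5 such mRNAs that could be read. It was higher in *Kdm5c*-KO males, at 51.9 ± 5.05 CPM against 37.1 ± 6.21 CPM in WT males (SD, n = 4 each), with a Log2FC of 0.48 (SE 0.0956, edgeR q = 0.00618). In *Kdm5c*-HET females it was 43.2 ± 0.747 CPM against 35.98 ± 3.46 CPM in WT females, with a Log2FC of 0.26 (SE 0.0961, edgeR q = 0.534). Of all genes tested, 3.55% were called higher in the male mutants. *Cdkn1a* could be read only through lists that the study drew up from these same contrasts. Its q values here are therefore descriptions and not independent tests.

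Markers of brain cell types also differed between the letters. A call by letter was not particular to them, since 11.6% of the genes tested were called higher in E and 12% lower. The tables used here pair 9 of the 52 listed markers with an identifier, 1 to 3 for each of 6 cell types and none for ependymal cells, microglia, endothelium, or meninges. These 9 are paired through lists that the study drew up from its comparisons of mutant with WT animals. Their q in *Kdm5c*-KO males are therefore descriptions and not independent tests, and the unpaired markers could not be read. *Nes*, the intermediate filament of neural progenitors, was higher in E by 0.31 (edgeR q = 0.000122). The neuronal marker *Rbfox3* was lower by 0.12 (q = 0.00625), the astrocyte water channel *Aqp4* by 0.20 (q = 0.000214), and the choroid plexus marker *Aqp1* by 1.28 (q = 0.00447). In *Kdm5c*-KO males *Nes* was higher by 0.37 (q = 0.0824), and *Rbfox3* and *Aqp1* were lower by 0.19 (q = 0.0642) and 2.0 (q = 0.0642), all by edgeR. The hemoglobin genes *Hba-a1* and *Hba-a2* were lower in *Kdm5c*-KO males by 0.59 (edgeR q = 0.00131) and 0.67 (edgeR q = 0.00904), *Hbb-bt* gave -0.57 (edgeR q = 0.112), and between the letters their q ran from 0.584 to 0.835. In WT females against WT males, the contrast in which *Dppa5a* was lower in every female, *Hba-a1* was lower by 0.40 (edgeR q = 0.0417) and *Hba-a2* by 0.54 (edgeR q = 0.0519), and *Hbb-bt* gave -0.52 (edgeR q = 0.135). *Ttr*, the choroid plexus gene for transthyretin, had between 1361 and 5849 counts in 6 animals (WT males 2D and 5D, WT females 1D and 3D, and *Kdm5c*-HET females 8E and 9E) and at most 125 in the other 10. The part of these markers, and of what the letter stands for, in the levels of *Igf2bp1* and *Dppa5a* was not tested.

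Without WT males 2D and 5D, those with high *Ttr*, the Log2FC in *Kdm5c*-KO males was 0.77 (SE 0.500) for *Trim71* and 0.67 (SE 0.426) for *Dppa5a*, and for *Igf2bp1* it was 0.87 (edgeR q = 0.699). In the same fit *Igf2bp1* kept its difference between the letters, at 1.09 (edgeR q = 0.00177). In females, leaving out 1D or 3D, the WT animals with high *Ttr*, gave a Log2FC of 2.21 or 1.60 for *Trim71* and 1.34 or 1.35 for *Dppa5a*.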

How the data were processed

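The authors purified RNA, enriched polyadenylated RNA, and prepared directional libraries, with RNA isolation, library preparation, and sequencing in a single batch. They mapped reads to mm10 with STAR 2.5.3a, removed duplicates, kept uniquely mapped reads, and deposited raw gene counts from featureCounts (Subread 1.5.0), which are whole numbers and not normalized. The strand setting of the counting is not given in the sources used here, so reads of overlapping genes may be shared. The samples are separate animals from a few litters, and p-values measure the spread between animals, some of which share a litter.

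The members and lists were chosen with earlier results of these data known. The counts of 16 animals were filtered with filterByExpr, scaled by TMM, and fitted with edgeR 4.0.16 (R 4.3.3; quasi-likelihood test, a mean per group, Benjamini-Hochberg adjustment over 17866 genes, q under 0.1). The letter was tested with the groups in the fit. *Lin28a* and *Hmga2*, which did not pass the filter, were compared by an exact permutation test of mean CPM (6 tests, unadjusted). A count of 0 was given a limit of 3 counts, and intervals are at 95%. DESeq2 1.42.0, other scalings and filters, the letter as covariate, one sex alone, q under 0.05, and each animal left out were alternatives.

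Genes were named always for the 6 members, for list genes by smallest p or any call, and for *Trim71* and *Dppa5a* by the 5 highest correlations. Symbols came from the members and from identifier and symbol columns of the study's tables, which pair 1013 identifiers. Of these genes 1009 were tested, and the neighbours on the chromosome were not named, since the tables used here do not pair them. *Kdm5c* itself was not analysed here, as its identifier is not paired. Coordinates are from GRCm38.p6 (mm10). No sequence is printed, and a few items are not reported here.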

Additional observations from a re-analysis of the deposited data

Results flagged for a closer look

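*Lin28a* in *Kdm5c*-HET female 9E stood apart from the other 3 animals of its group, at 0.212 CPM (5 counts) against 0 in each of them. It was picked out by Dixon's criterion, the gap to the nearest animal over the range of the group. With 0 in the other 3 animals that ratio is 1 for any count above 0, so it says nothing of how unusual 5 counts are. The other groups of the 6 genes contained no such animal, though chance alone gives about 1 in 20 groups and the WT groups of *Lin28a*, all at 0, could not have given one. The same animal had the lowest *Trim71* of its group (0.509 CPM) and 1361 counts of *Ttr*.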

How the results depend on the processing

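The 294 counts of *Dppa5a* and 292 of *Trim71* over 16 animals limit what could be seen, and *Lin28a* and *Hmga2* did not pass the filter. Fitted without it, neither was called in any contrast, with the lowest edgeR q at 0.552 for *Lin28a* and 0.779 for *Hmga2*, while DESeq2 gave no adjusted p for them. Over all genes, the number called in *Kdm5c*-KO males was 937, and 1468 with the letter as covariate, 583 at q under 0.05, 274 without WT males 2D and 5D (chosen after seeing the data), and 555 (without WT male 5D) to 1129 with each animal left out. In *Kdm5c*-HET females it was 91, and 137 by DESeq2, 228 without the filter, 157 with the letter, and 50 (without WT female 3D) to 89 with each animal left out. For the difference between the sexes it was 7, and 26 by DESeq2, 80 without the filter, 24 with the letter, and 3 without WT males 2D and 5D. Between the WT sexes it was 894, and 1518 by DESeq2, 1679 with the letter, 348 at q under 0.05, 10 without WT males 2D and 5D, and 69 (without WT female 5E; 73 without WT male 5D) to 1243 with each animal left out. The number for the letter was 4219, and 3071 at q under 0.05 and 3465 to 4263 with each animal left out. The causes were not tested.

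Among the members, *Trim71* kept its direction in every fit, with a Log2FC from 0.83 to 1.43 in males and 1.44 to 2.21 in females with each animal left out. *Dppa5a* ran from 0.53 to 0.76 and from 1.33 to 1.72, and its female Log2FC was 0.87 within letter D. Its letter Log2FC was 0.64 without the filter (q = 0.165) and 0.46 to 0.75 with each animal left out. *Igf2bp1* in males gave 1.15 (edgeR q = 0.0198) without the filter and 0.77 to 1.39 with each animal left out (edgeR q from 0.0737 to 0.496). Signs turned with single animals for *Lin28b* in males (-0.35 to 0.11), in the difference between the sexes (-0.46 to 0.0077), and between the WT sexes (-0.0069 to 0.33). For *Hmga2* the difference of the means ran from -0.0614 to 0.0386 CPM in females and from -0.0225 to 0.0775 CPM between the WT sexes. That of *Lin28a* in females was 0 without *Kdm5c*-HET female 9E. No paired analysis was possible because no full replicate label is shared between groups. The letter, the part of the label that is shared, entered as the covariate above.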

Other observations

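The genes whose levels were most like those of *Igf2bp1* over the 16 animals were chosen to be listed after its values were seen. Among the 1007 genes with a symbol, high values of Pearson's r of log2 CPM were those of *Gipr* (0.915), the receptor of an incretin hormone, *Aldh1l2* (0.914), a mitochondrial enzyme of folate metabolism, *Igf1r* (0.882), and *Ccdc171* (0.874). The names come from lists that the study chose on these animals, and the animals share their groups and letters.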
